A study of Rattus norvegicus with 2 samples.

Results

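The 10 genes described here encode proteins that degrade amyloid-β (Aβ), carry it, bind it at the cell surface or take part in its endocytosis. They were picked by gene symbol from the 17049 genes of the deposited table, and all 10 were found there, each listed once and with whole read numbers in both libraries. They are the proteases Mme, Ide and Ece1, the carrier Clu, the receptors Lrp1, Sorl1, Trem2 and Prnp, and the endocytic adaptors Picalm and Bin1. The series compared primary oligodendrocyte precursor cells (OPCs), the dividing glial cells that form myelinating oligodendrocytes, from the brain of wild-type adult rats. One library came from OPCs given Aβ, which the protocol sets at 1 µM for 2 days, and 1 from OPCs given DMSO, a solvent. Both cultures were kept at 37 °C and 5% CO2 in a medium called OGM, and the treatment label separates them, since the protocol text of both samples names Aβ. The labels do not state the form of the peptide, the age in numbers or how many rats or cultures a library stands for.

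Aβ is cut from its membrane precursor, aggregates outside cells in Alzheimer's disease, and is removed by proteolysis, by carriage to clearance routes and by endocytosis into lysosomes. Neprilysin (Mme), insulin-degrading enzyme (Ide) and endothelin-converting enzyme 1 (Ece1) are metalloproteases that cleave it at the cell surface, in the cytosol and in acidic vesicles. Clusterin, lipoprotein receptors and clathrin adaptors bear on how much of it enters a cell, and in brain this work is attributed mainly to microglia, astrocytes, neurons and vessels. These roles are known mostly from human and mouse work.

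The 10 genes as a set stood at nearly the same level with Aβ and with DMSO. They held 23155 reads in the Aβ library and 22754 in the DMSO library, which is 0.147% of 15704932 estimated reads with Aβ and 0.145% of 15663751 with DMSO. Levels are given in TPM, which corrects reads for gene length and library total. By summed TPM the set was at 592 with Aβ and 589 with DMSO. At 1 TPM or more in either library, the minimum used here, 8 of the 10 were kept, and Mme and Sorl1 were not. None of the 10 was 2-fold apart on the scale log2((Aβ TPM + 1)/(DMSO TPM + 1)), where 0.994% of the 12980 genes kept were 2-fold apart in either direction. On that scale the 8 kept members ran from −0.14 to 0.11 with a median of 0.03, while the central 95% of all kept genes ran from −0.45 to 0.47 with a median of 0.01. A pseudocount of 1 understates the change of low genes.

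Reads were also compared as a ratio, Aβ over DMSO, of reads per total reads, with an exact Clopper-Pearson 95% interval of the conditional binomial; beside a gene, brackets hold this ratio and then its interval. With 1 library per group there is no replicate check, and the interval covers counting error between these 2 libraries only, not the spread between cultures. Amplified reads are not independent molecules where no molecular identifiers were used, so true counting error may be wider. The interval lay above 1 for 2 of the 10 members (Lrp1 and Bin1), below 1 for 1 (Ece1), and held 1 for 7. Of all genes kept, 12% had an interval above 1 and 12.5% below, or 24.5% in either direction. Deeper genes leave 1 more often: the share in either direction was 36.2% among the 3839 genes with more than 1000 reads in each library, a depth reached by 6 members including all 3 of those named above, and 14.6% among kept genes with under 200 reads over both libraries. Beside these shares, 3 of 10 members leaving 1 is not read as a result about the set. The counts given below for related genes and markers stand beside the same shares, which depend on depth. They are not read as results about those lists.

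**Figure D1:**
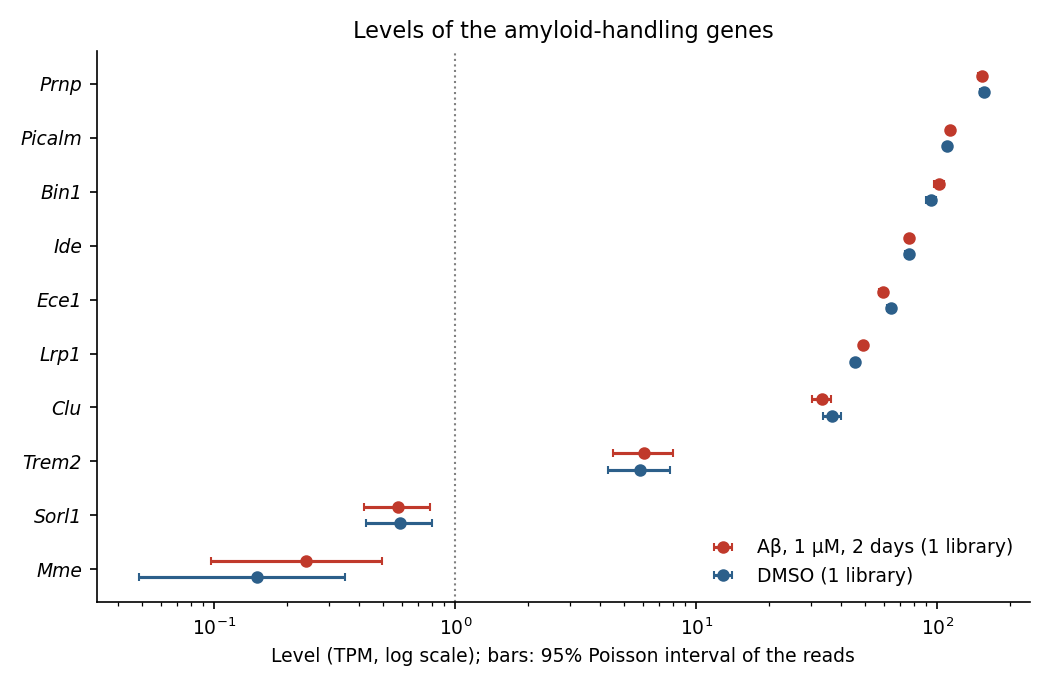
Level of each of the 10 genes in TPM on a log scale, with Aβ (red, upper point) and DMSO (blue, lower point), 1 library each; bars are exact Poisson 95% intervals of the reads and the dotted line marks 1 TPM. The 2 points of each gene lie close together, from Prnp at 153 TPM with Aβ and 156 TPM with DMSO down to Mme at 0.24 TPM with Aβ and 0.15 TPM with DMSO.

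The order of the levels was the same in both libraries. Prnp stood highest, followed by Picalm, Bin1, Ide, Ece1, Lrp1, Clu, Trem2, Sorl1 and Mme. Neighbours in this order were separated by more than the counting error of their reads, with 1 exception, Sorl1 and Mme, whose Poisson 95% intervals overlapped in the Aβ library (Sorl1 0.416 to 0.787 TPM, Mme 0.0965 to 0.495 TPM) and not in the DMSO library (Sorl1 0.425 to 0.798 TPM, Mme 0.0487 to 0.35 TPM). These intervals leave out error in the gene lengths behind TPM. The level of Prnp was 636 times that of Mme with Aβ and 1037 times with DMSO, where Mme had 5 reads. The middle of the kept genes lay at 21.1 TPM in each library, so 7 members stood above it and Trem2, Sorl1 and Mme below.

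Among the 3 degrading enzymes of the set, Ide was the most abundant and Mme was nearly unread. A wider list of amyloid-degrading proteases reached 371 TPM with Aβ and 370 TPM with DMSO, above Ide. Ide (gene number 25700), a zinc protease of the cytosol that also cleaves insulin, was at 76.4 TPM on 3760 reads with Aβ and 76.0 TPM on 3772 reads with DMSO. Its read ratio was 0.994 (0.95 to 1.04), so counting error leaves room for a difference of 5.00% down or 4.04% up. By TPM the ratio lay on the other side of equality, at 1.01. Ece1 (94204), which also makes endothelin from its precursor, was the 1 member lower by reads, at 59.4 TPM on 2450 reads with Aβ and 64.4 TPM on 2663 reads with DMSO. This gave a read ratio of 0.918 (0.868 to 0.970), or 8.24% fewer reads per total. Of all kept genes, 56.8% had a smaller absolute log2 TPM ratio than Ece1. Mme (24590), the membrane protease neprilysin, had 7 reads (0.24 TPM) with Aβ and 5 reads (0.15 TPM) with DMSO. Its ratio of 1.40 had an interval of 0.381 to 5.58, so counting error leaves room for a difference of 61.9% down or 458% up.

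Other amyloid-degrading proteases included genes higher and 1 gene lower by reads. Of 15 others found, 14 were kept, with 5 higher by reads, 1 lower and 8 holding 1, and none 2-fold apart. That is 35.7% higher and 7.14% lower, beside 12% and 12.5% of all kept genes. Several of the 14, such as Ctsb and Ctsd, had more than 1000 reads in each library. At that depth 36.2% of genes left 1 in either direction, so the excess over all kept genes is not read as a result. Their median log2 TPM ratio was 0.05, against 0.01 over all genes. The higher ones were the gelatinase Mmp9, at 15.8 TPM with Aβ and 12.6 TPM with DMSO (1.25, 1.09 to 1.44), the peptidase Ace (1.25, 1.03 to 1.51), the urokinase gene Plau (1.23, 1.13 to 1.34), the serine protease Htra1 (1.10, 1.03 to 1.17) and the tissue plasminogen activator gene Plat (1.04, 1.001 to 1.09), which had divided, non-whole reads. Mmp2, the other gelatinase, was lower at 25.8 TPM with Aβ and 32.9 TPM with DMSO (0.781, 0.708 to 0.861). The close relatives of the members were within counting error of equality. Ece2 had 115 reads with Aβ and 129 with DMSO (0.889, 0.685 to 1.15), and Mmel1, the neprilysin-like gene, had 37 with Aβ and 35 with DMSO (1.05, 0.646 to 1.72). Mmel1 at 1.63 TPM with Aβ and 1.54 TPM with DMSO thus stood above Mme in both libraries.

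The carrier Clu (24854), a secreted chaperone also called apolipoprotein J, was the member with the lowest ratio among the 8 kept. It was at 33.1 TPM on 498 reads with Aβ and 36.7 TPM on 552 reads with DMSO. The read ratio was 0.900 (0.795 to 1.02), an interval that reaches from 20.4% fewer reads to 1.75% more. Of all kept genes, 65.7% had a smaller absolute log2 TPM ratio. Among 11 other genes found of the carrier list, 9 were kept, of which 3 were lower by reads, 1 higher and 5 held 1. Their median log2 TPM ratio was −0.05. Apod, apolipoprotein D, was lower on 87 reads with Aβ and 148 with DMSO (0.586, 0.445 to 0.769). A2m, the protease trap α2-macroglobulin and a ligand of Lrp1, was lower with 41.3 TPM under Aβ and 57.6 TPM under DMSO (0.710, 0.669 to 0.754), on divided reads. The third, Itm2c, which encodes a membrane protein listed with the carriers, was at 0.902 (0.860 to 0.947). Cst3, the protease inhibitor cystatin C, was higher, at 3391 TPM with Aβ and 2900 TPM with DMSO (1.19, 1.17 to 1.22). Apoe, the apolipoprotein whose human alleles carry Alzheimer risk, was at 1071 TPM with Aβ and 1047 TPM with DMSO (1.03, 0.999 to 1.06), far above Clu in level in both libraries.

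**Figure D2:**
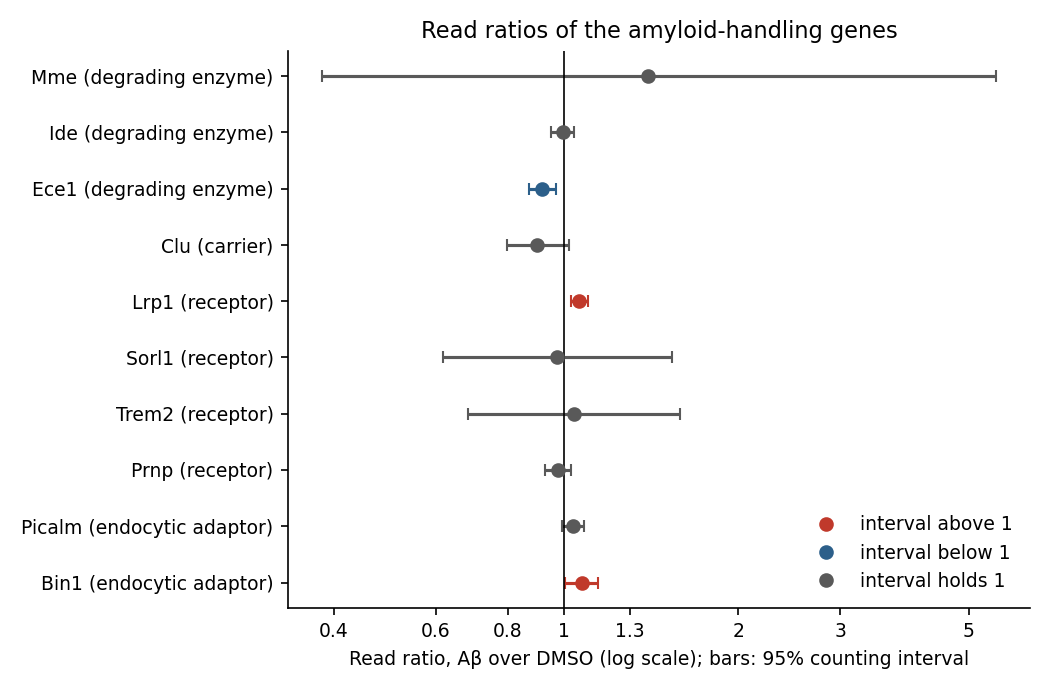
Read ratio of each member, Aβ over DMSO, on a log scale with its exact 95% counting interval, grouped by role. Lrp1 and Bin1 (red) lie above 1, Ece1 (blue) lies below 1, and the wide bars of Mme, Sorl1 and Trem2 rest on 7 to 49 reads in the Aβ library.

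Lrp1 (299858), a large endocytic lipoprotein receptor that takes up apolipoprotein E, α2-macroglobulin and Aβ, was higher by reads. It was at 48.9 TPM on 7376 reads with Aβ and 45.5 TPM on 6918 reads with DMSO, the most reads of any member. The read ratio was 1.06 (1.03 to 1.10), a difference of 6.34%. Of the 15 other genes of the lipoprotein receptor family and its regulators reported here, 11 were kept, with 3 higher by reads, 1 lower and 7 holding 1, and a median log2 TPM ratio of 0.05. Lrp12 was at 20.8 TPM with Aβ and 16.7 TPM with DMSO (1.23, 1.11 to 1.37), Vldlr at 7.28 TPM with Aβ and 6.12 TPM with DMSO (1.16, 1.001 to 1.36) and Lrp10 at 95.8 TPM with Aβ and 88.6 TPM with DMSO (1.07, 1.02 to 1.13). Lrp6, a Wnt co-receptor, was lower (0.904, 0.828 to 0.987). Lrpap1, the chaperone that keeps Lrp1 free of ligand during its folding, had 822 reads with Aβ and 816 with DMSO (1.01, 0.911 to 1.11). Mylip, a ubiquitin ligase that targets lipoprotein receptors for breakdown, had 26 reads with Aβ and 38 with DMSO (0.682, 0.398 to 1.15). Lrp2, or megalin, stayed under 1 TPM with 70 reads with Aβ and 47 with DMSO (1.49, 1.01 to 2.20).

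Sorl1 (300652), a sorting receptor that routes the Aβ precursor through the retromer, was at 0.58 TPM on 41 reads with Aβ and 0.59 TPM on 42 reads with DMSO. Its read ratio of 0.974 had an interval of 0.618 to 1.53. Lrp1 stood 84.3 times higher than Sorl1 per length with Aβ and 77.1 times with DMSO. The other sorting receptors and retromer parts were mostly abundant. Of 17 found, 16 were kept, with 3 higher by reads, 2 lower and 11 holding 1, and a median log2 TPM ratio of 0.01. The sortilin gene Sort1 was at 53.5 TPM with Aβ and 55.1 TPM with DMSO (0.960, 0.917 to 1.005), and Sorcs1, higher by reads, at 41.9 TPM with Aβ and 37.6 TPM with DMSO (1.07, 1.01 to 1.13). Sorcs2 was at 7.03 TPM with Aβ and 6.24 TPM with DMSO (1.11, 0.964 to 1.29). The retromer subunits Vps29 (1.13, 1.03 to 1.24) and Vps35 (1.05, 1.01 to 1.09) were also higher. Gga3, a Golgi adaptor of these receptors, was lower at 13.3 TPM with Aβ and 15.7 TPM with DMSO (0.860, 0.762 to 0.969), as was the sorting nexin Snx27 (0.931, 0.897 to 0.965), while Gga1 was at 0.920 (0.841 to 1.005).

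Prnp (24686) encodes the prion protein, a lipid-anchored surface protein reported to bind Aβ oligomers, and had the highest level of the 10. It was at 153 TPM on 2930 reads with Aβ and 156 TPM on 2994 reads with DMSO, ranking 1061st of 17049 genes with Aβ and 1024th with DMSO. The read ratio was 0.976 (0.927 to 1.03), which leaves room for 7.27% fewer or 2.74% more reads. Its relatives were nearly unread, with 0 reads of Prnd with Aβ and 1 with DMSO, and 7 reads of Sprn with Aβ and 9 with DMSO. Of 22 other surface proteins listed for Aβ binding and found, 15 were kept, with 3 higher by reads, 1 lower and 11 holding 1; their median log2 TPM ratio was 0.07. The inhibitory Fc receptor gene Fcgr2b was at 39.2 TPM with Aβ and 27.7 TPM with DMSO (1.41, 1.22 to 1.63). The scavenger receptor gene Scarb1 (1.17, 1.08 to 1.26) and the integrin subunit gene Itgb1 (1.07, 1.04 to 1.10, on divided reads) were also higher. Ephb2, an ephrin receptor, was lower on 20 reads with Aβ and 39 with DMSO (0.512, 0.283 to 0.899). The scavenger receptor gene Cd36 had 43 reads with Aβ and 33.73 with DMSO, not all whole (1.26, 0.786 to 2.04). The acetylcholine receptor gene Chrna7 had 145 reads with Aβ and 116 with DMSO (1.25, 0.970 to 1.61), yet 2.89 TPM with Aβ and 2.91 TPM with DMSO.

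Trem2 (301227), a lipid and Aβ receptor of microglia that signals through the adaptor Tyrobp, was at 6.08 TPM on 49 reads with Aβ and 5.83 TPM on 47 reads with DMSO. The read ratio was 1.04 (0.682 to 1.59), so counting error leaves room for a difference of 31.7% down or 58.6% up. Tyrobp stood higher at 66.3 TPM with Aβ and 63.9 TPM with DMSO (1.09, 0.868 to 1.38). Trem1, an inflammatory amplifier receptor that shares this adaptor, had 54 reads (6.65 TPM) with Aβ and 25 reads (3.10 TPM) with DMSO, a ratio of 2.15 (1.32 to 3.61); the difference between the Trem1 and Trem2 ratios was not tested. Of 18 others in the TREM list found, 12 were kept, with 1 higher by reads (Trem1), 1 lower and 10 holding 1, and a median log2 TPM ratio of 0.06. The lower one was Syk, the kinase downstream of Tyrobp, at 13.9 TPM with Aβ and 16.5 TPM with DMSO (0.832, 0.753 to 0.920). Btk had 43 reads with Aβ and 30 with DMSO (1.43, 0.876 to 2.36), Cd33 had 48 with Aβ and 60 with DMSO (0.798, 0.534 to 1.19), and Ms4a4a, on divided reads under 1 TPM, 19.57 with Aβ and 34.20 with DMSO (0.587, 0.320 to 1.05).

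Microglia markers were read in both libraries beside Trem2. All 19 markers reported here had reads, and their summed level was 416 TPM with Aβ (0.41 to 66.3 TPM per gene) and 467 TPM with DMSO (0.49 to 80.2 TPM), a ratio of 0.890. Of these, 16 were kept, and 4 were lower by reads and 12 held 1; the ratio itself was above 1 for 7 of the 16 and below 1 for 9. The lower ones were the complement genes C1qa (0.672, 0.589 to 0.766), C1qc (0.748, 0.630 to 0.887) and C1qb (0.796, 0.674 to 0.940), and Aif1 (0.778, 0.635 to 0.953). The homeostatic markers Tmem119 (39 reads with Aβ, 45 with DMSO), Cx3cr1 (15 with Aβ, 27 with DMSO) and P2ry12 (7 with Aβ, 14 with DMSO) rested on few reads. Among markers whose intervals held 1, Itgam (1.12, 0.986 to 1.27), Cd53 (1.11, 0.922 to 1.33) and Cd68 (1.08, 0.921 to 1.27) had ratios above 1. Without the 4 lower genes, a choice made after their values were seen, the other 15 markers summed to 255 TPM with Aβ and 249 TPM with DMSO. Leaving out only the lower genes had to raise the ratio of the sums, so the near equality is not read as a result. Trem2, which is not among the 19, amounted to 1.46% of the summed marker level with Aβ and 1.25% with DMSO. Its own level was 6.08 TPM with Aβ and 5.83 TPM with DMSO, so these shares differ mostly through the marker sum. In bulk RNA, fewer cells of a type and less RNA per cell cannot be told apart, and the part of microglia in these values was not tested.

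**Figure D3:**
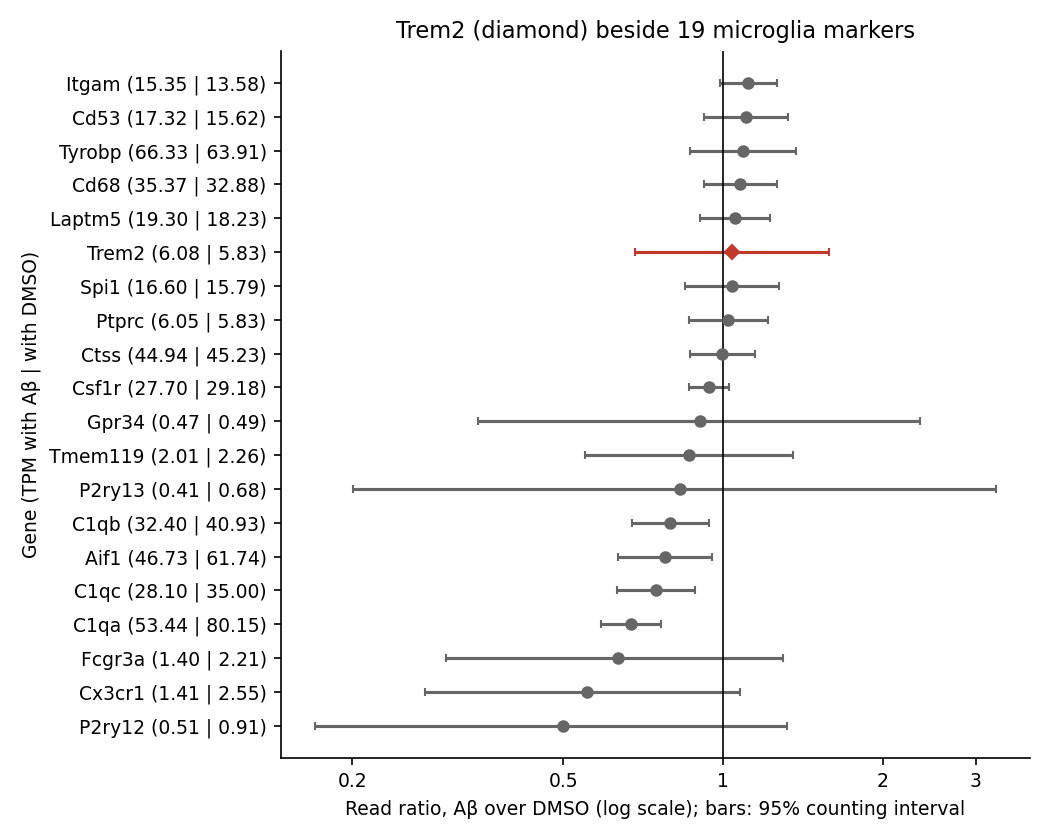
Read ratio, Aβ over DMSO, of Trem2 (red diamond) and 19 microglia markers (grey) on a log scale with exact 95% counting intervals; the labels hold the TPM of both libraries. Trem2 at 1.04 lies among markers whose intervals hold 1, and C1qa, C1qc, Aif1 and C1qb lie below 1.

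Picalm and Bin1, both endocytic genes near Alzheimer risk variants in people, followed Prnp in level. Picalm (89816), which links clathrin to membrane and sizes the coated pit, was at 113 TPM on 4252 reads with Aβ and 110.0 TPM on 4094 reads with DMSO. Its read ratio was 1.04 (0.992 to 1.08), which held 1. Bin1 (117028), a membrane-bending protein of the amphiphysin family, was at 101 TPM on 1792 reads with Aβ and 94.1 TPM on 1667 reads with DMSO. Its read ratio of 1.07 (1.00 to 1.15) only just left 1, the lower bound being 1.002, and a 99% interval of 0.982 to 1.17 held it. Bin1 also has isoforms specific to brain and muscle, which values per gene do not separate.

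Clathrin endocytosis genes other than this pair showed small differences. Of 31 others found, 30 were kept, with 3 higher by reads, 3 lower and 24 holding 1, and their median log2 TPM ratio was −0.05, with 9 of the 30 above 0 and 21 below. Snap91, the neuronal relative of Picalm, was at 19.7 TPM with Aβ and 15.1 TPM with DMSO (1.31, 1.17 to 1.46), and stood below Picalm in both. The epsin gene Epn2 (1.15, 1.11 to 1.20) and the adaptor subunit gene Ap2a1 (1.09, 1.03 to 1.15, on divided reads) were the others higher. The lower ones were Hip1 (0.853, 0.806 to 0.903), Ap2b1 (0.927, 0.890 to 0.966, on divided reads) and Ap2m1 (0.954, 0.919 to 0.991). Fcho1 had 43 reads with Aβ and 60 with DMSO (0.715, 0.472 to 1.07), Rin3 had 89 with Aβ and 115 with DMSO (0.772, 0.579 to 1.03), and the dynamin gene Dnm1 had 130 with Aβ and 108 with DMSO (1.20, 0.923 to 1.56). Cd2ap, a further gene near an Alzheimer risk variant, was at 26.8 TPM with Aβ and 27.8 TPM with DMSO (0.958, 0.842 to 1.09).

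**Figure D4:**
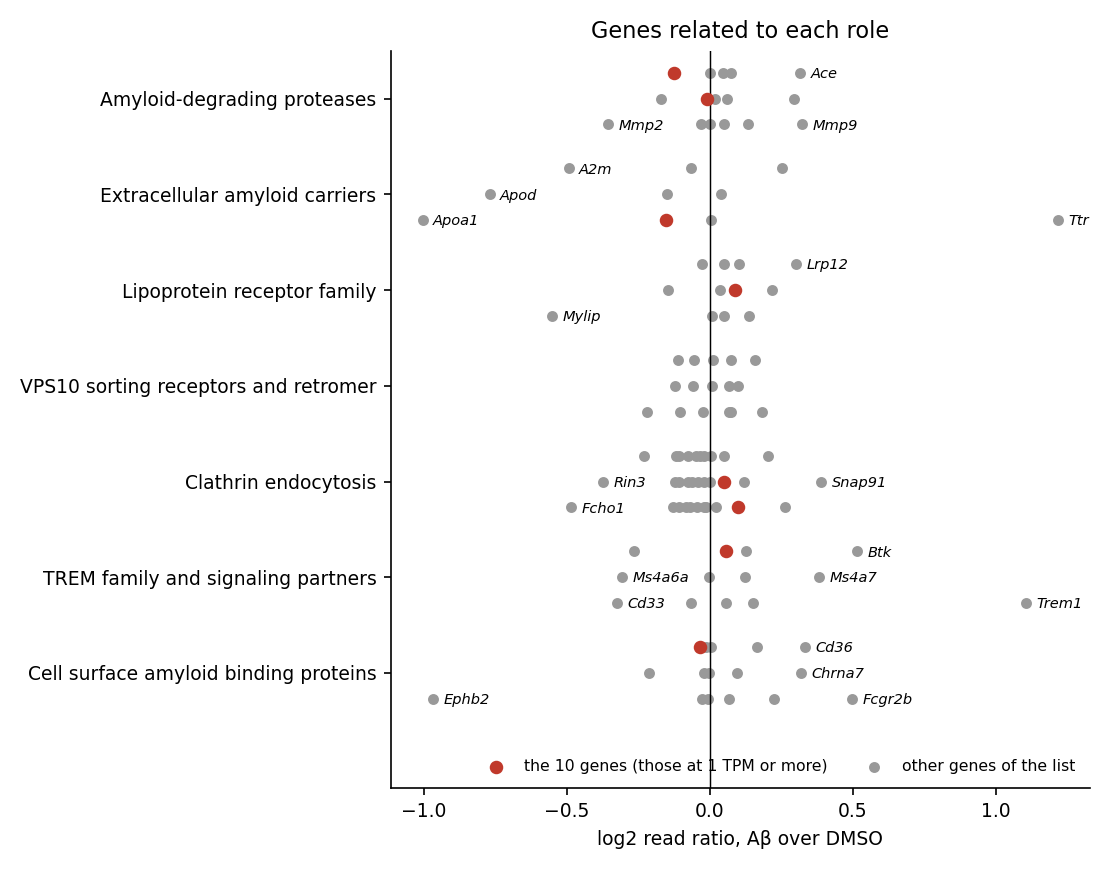
The log2 read ratio, Aβ over DMSO, of each gene at 1 TPM or more in the 7 related lists, with the 8 members that reach it in red (Mme and Sorl1 do not) and others in grey; height within a list only separates points, and genes past 0.3 in either direction are named. The red points lie near 0, while Trem1 lies above 1; Apoa1 and Ttr, at both ends of the carriers, rest on few reads (Apoa1 on 5 with Aβ and 10 with DMSO, Ttr on 7 with Aβ and 3 with DMSO).

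The authors' deposited enrichment table lists 282 gene ontology terms for genes called higher with Aβ, 391 of a background of 13666. It named none of the 10 members in any term. At that share few or none of 10 genes would be named, so this is not read as a result about the members. Genes called lower with Aβ are outside that table. Genes of the 7 related lists that it named included Cst3, Fcgr2b, Mmp9, Plau, Snap91 and Trem1. None of the terms in the authors' deposited table has amyloid, endocytosis or phagocytosis in its name. A gene of the 391 that falls in no listed term would not be seen there, since 246 distinct genes are named.

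**Figure D5:**
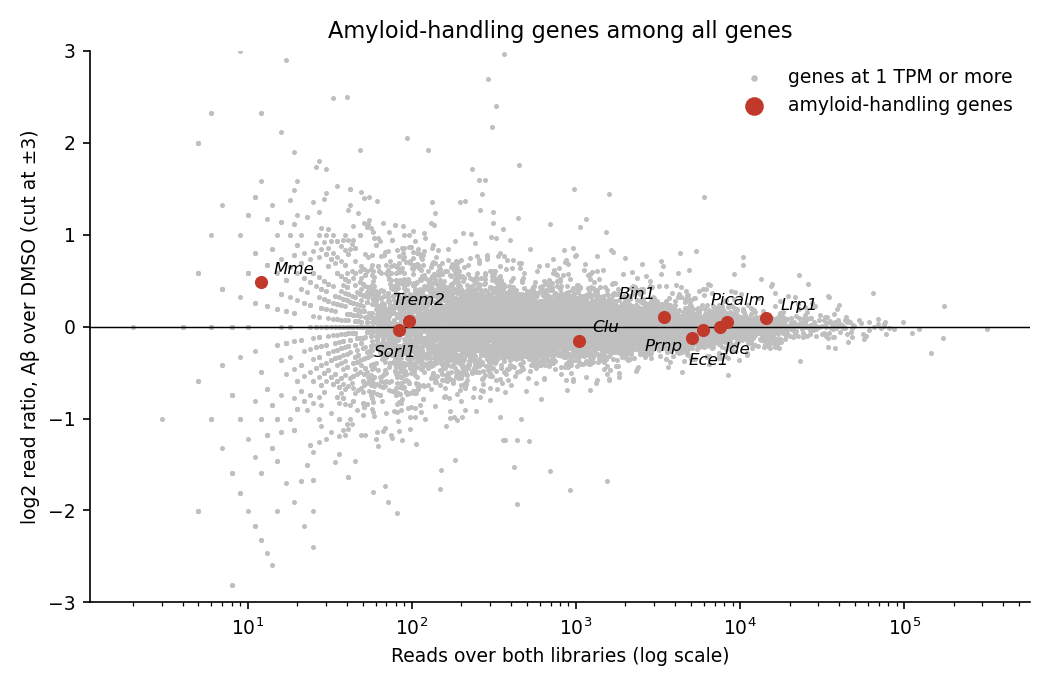
The log2 read ratio, Aβ over DMSO, against reads over both libraries (log scale) for 12919 genes at 1 TPM or more (grey) and the 10 members (red, Mme and Sorl1 being under 1 TPM); 9 genes past 3 and 52 genes at 0 reads in a library are not drawn. The members lie inside the cloud of genes of like depth, and Mme, on 7 reads with Aβ and 5 with DMSO, sits where the cloud is widest.

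The labelled cell type was set beside listed markers, which were chosen with earlier results of these data known. Olig1 (1421 TPM with Aβ, 1557 TPM with DMSO), Ptprz1 (866 TPM with Aβ and 905 TPM with DMSO) and Olig2 (336 TPM with Aβ and 375 TPM with DMSO) were abundant, Pdgfra was at 23.2 TPM with Aβ and 24.6 TPM with DMSO, Sox10 had 22 reads with Aβ and 33 with DMSO, and Gpr17 had 4 with Aβ and 5 with DMSO. Of the 11 OPC markers kept, 4 were higher by reads, 4 lower and 3 held 1. The higher ones were C1ql1 (1.95, 1.32 to 2.91), Cspg4, the NG2 proteoglycan (1.78, 1.54 to 2.05), Bcan (1.10, 1.03 to 1.17, on divided reads) and Cspg5 (1.09, 1.04 to 1.14), and the lower ones Olig1, Olig2, Pdgfra and Ptprz1. All 10 astrocyte markers were also kept, among them Slc1a3 (1013 TPM with Aβ and 987 TPM with DMSO) and Gfap (328 TPM with Aβ and 368 TPM with DMSO), with a summed level of 2396 TPM with Aβ and 2410 TPM with DMSO beside 2985 TPM with Aβ and 3165 TPM with DMSO for the OPC markers. Of the 10 astrocyte markers, 3 were higher by reads, 5 lower and 2 held 1. Some astrocyte markers are known in OPCs as well, Slc1a3 among them. The astrocyte markers other than Slc4a4 all stood above Pdgfra in level in both libraries. Aqp4 was at 47.8 TPM with Aβ and 55.6 TPM with DMSO, and Aldh1l1 at 38.9 TPM with Aβ and 42.6 TPM with DMSO. The part of astrocytes in these cultures was not tested. Mature oligodendrocyte markers summed to 218 TPM with Aβ and 233 TPM with DMSO, and neuron markers to 161 TPM with Aβ and 148 TPM with DMSO. Map2, at 105 TPM with Aβ and 107 TPM with DMSO, made up most of the neuron sum. Of the 9 neuron markers kept, 4 were higher by reads, 1 was lower and 4 held 1, with a median log2 TPM ratio of 0.23. Rbfox3 (1.85, 1.06 to 3.31), Eno2 (1.79, 1.49 to 2.15, on divided reads), Celf4 (1.72, 1.16 to 2.56) and Snap25 (8.47 TPM with Aβ and 5.62 TPM with DMSO, interval 1.16 to 1.96) were higher, and Syt1 (0.490, 0.297 to 0.790) was lower. Endothelial markers summed to 7.98 TPM with Aβ and 7.23 TPM with DMSO and pericyte and fibroblast markers to 14.1 TPM with Aβ and 14.95 TPM with DMSO. Which cells the reads of the 10 genes came from was not tested.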

How the data were processed

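The authors deposited 1 table with estimated read counts, TPM and FPKM for 17049 genes in 2 libraries, 1 per group. Per the submitters' processing notes, Bowtie2 and the build Rnor_6.0 were used; the counting tool and the annotation are not given there. Among the deposited estimated counts, 1979 (Aβ) and 2074 (DMSO) are not whole. Deposited columns named normalized read count, treated as a score, equal the count rounded up and were not used. A deposited enrichment table gives fold ratio, rich factor ratio, z score, p-value and gene count per term, per the file headers.

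Read ratios used counts rounded to whole numbers and library totals (Python 3.11.15, scipy 1.17.1), and "higher" or "lower by reads" means that the 95% interval excluded 1. TMM factors came from edgeR 4.0.16. A listed zero means that no read was counted. An expected count of up to 3 reads, that is 0.191 CPM (Aβ) and 0.192 CPM (DMSO), is still possible there. Intervals were tested on simulated reads drawn with counting error only, which is what the intervals assume. Such a test cannot speak to amplification or to the spread between cultures. Genes altered in it had 200 or more reads over both libraries, more than Mme, Sorl1 and Trem2 have. Totals of 15704932 (Aβ) and 15663751 (DMSO) estimated reads set the precision. No test of the treatment was possible with 1 library per group. All 10 gene numbers matched RefSeq (GRCr8) symbols; no coordinates are given.

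The members and the 7 related and 7 marker lists were chosen with earlier results of these data known. Named genes were the members, the 4 of each related list with the largest absolute log2 read ratio at 50 or more reads, and 11 named always; others were named after their values were seen, to complete a count or to show markers. Of the lists as first written, 2 genes are not reported here; they were left out of the list counts, sums and medians after values had been seen, for reasons unrelated to their values. With 2 libraries no likeness of pattern between genes can be measured. Alternatives changed the scaling, interval, pseudocount, filter and unit.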

Additional observations from a re-analysis of the deposited data

How the results depend on the processing

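Of 85 alternative values for 21 results, 83 were labelled as unchanged. For read ratios this means the same direction and side of the threshold, and for TPM ratios and medians a value within the interval. For counts and shares it means a value within a set fold of the main value. Part of this tally could hardly change. All 10 members have whole reads, so rounding down left their ratios as they were. The interval of the member median ran from the lowest to the highest kept member (−0.14 to 0.11), which a median can hardly leave. The count of members above 1 was 1 in place of 2 with 99% intervals, because the wider interval of Bin1 (0.982 to 1.17) held 1; the count below 1 stayed at 1. TMM and median-ratio scaling moved all log2 ratios by 0.0002 and 0.0038 and left both counts as they were. The median log2 ratio of the members ran from 0.01 (FPKM) to 0.03 (pseudocount of 0.1). The 7 list medians, members included, ran from −0.10 to 0.07 over their alternatives. The share of genes called was 23.5% among genes with whole reads and 26.8% among genes with 200 or more reads over both libraries. Depth limits Mme, Sorl1 and Trem2 most: with 7 to 49 reads under Aβ and 5 to 47 under DMSO, their upper bounds were 1.53 times the DMSO level or more. No paired analysis was possible because each group has 1 library. No replicate could be left out.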

Other observations

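TPM and reads gave different pictures for a few genes of the related lists, chosen after their values were seen. Hcst, an adaptor relative of Tyrobp, had 5 reads in each library but 3.30 TPM with Aβ and 4.10 TPM with DMSO. Sprn had 7 reads with Aβ and 9 with DMSO, but 0.80 TPM with Aβ and 0.32 TPM with DMSO. For all 10 members the TPM ratio stayed within the read interval, and for Ide it changed side, at 1.01 by TPM and 0.994 by reads. Among genes with few reads, Treml2 had 8 reads with Aβ and 2 with DMSO (ratio 3.99, 0.796 to 38.6), and Ttr, the thyroid hormone carrier transthyretin, had 7 with Aβ and 3 with DMSO (2.33, 0.531 to 13.9).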
